A study of Mus musculus with 6 samples.

Results

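The genes described here are 10 regulators that tie the growth kinase complex mTORC1 to amino acids, stress and the Rag GTPases: Sesn1, Sesn2, Sesn3, Ddit4, Eif4ebp1, Rragc, Rragd, Depdc5, Flcn and Wdr59. They were listed by name, with earlier results of these data known. All 10 were found among the 46983 gene identifiers of the count tables and were among the 16851 genes tested. RNA came from whole cerebellum of C57BL/6J mice at postnatal day 60. The 3 samples labelled Slc7a5-KO were Tie2-Cre Slc7a5 fl/fl. The 3 samples labelled WT were Tie2-Cre Slc7a5 fl/+, so they too carried the recombinase and 1 floxed allele. The labels number the samples separately but do not say that each is another animal, so p-values measure the spread between samples. The Tie2 promoter drives Cre in endothelial and blood lineages, so neurons and most glia of the tissue lie outside its reach. Slc7a5 encodes LAT1, a transporter of leucine and other large neutral amino acids.

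mTORC1 is recruited to the lysosome by Rag GTPase pairs when amino acids are plentiful, and there it promotes protein synthesis. The GATOR1 complex, which contains Depdc5, switches the pathway off, and the GATOR2 complex, which contains Wdr59, holds GATOR1 in check. Sestrins bind GATOR2 and restrain mTORC1 when leucine is short, with Sesn2 the best studied leucine sensor of the family. Sesn2, Ddit4 and Eif4ebp1 are also known targets of ATF4, the transcription factor of the amino acid response, while Sesn1 is known as a target of p53 and FoxO factors and Sesn3 as a target of FoxO factors.

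The libraries held 13438182 to 31077690 gene reads in the Slc7a5-KO group and 27672205 to 34160856 in the WT group. Slc7a5 itself had 164, 59.4 and 118 CPM (counts per mega-read, scaled by TMM) in Slc7a5-KO, against 72.0, 66.3 and 43.2 CPM in WT. It was therefore not lower (log2 fold change 0.91 ± 0.42, edgeR adjusted p = 0.84). With 1 library left out the value ran from 0.55, without Slc7a5-KO replicate 1, to 1.22, without Slc7a5-KO replicate 2. Only the latter fit had an edgeR adjusted p under 0.05, at 0.010. Which exons the floxed alleles lose is not stated in the labels, so this is no check of the deletion, and the libraries are called Slc7a5-KO by their labels alone throughout. Slc7a5-KO replicate 2 had 699 genes at exactly 2 reads, against 230 to 308 in the other libraries, and a choroid plexus marker sum of 278 CPM against 3480 to 7897 CPM elsewhere. Slc7a5-KO replicate 3 lay apart on principal component 1 (34% of variance) and WT replicate 2 on component 2 (24.7%). By Xist and Y-linked genes the Slc7a5-KO group held 2 females and 1 male and the WT group 1 female and 2 males. Markers of Purkinje cells (3954 to 5864 CPM summed in Slc7a5-KO, 5693 to 6874 CPM in WT) and granule neurons (3825 to 6042 and 4354 to 6354 CPM) were abundant, those that define the labelled tissue. In bulk tissue, fewer cells of a type and less RNA per cell cannot be told apart.

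None of the 10 regulators passed the edgeR test at an adjusted p of 0.05, a threshold that 0.0475% of all genes tested passed. DESeq2 and limma-voom also called 0 of the 10, with 0.339% and 0.0356% of genes called. At an unadjusted edgeR p under 0.05 there were 3 members, Eif4ebp1 and Sesn2 higher and Sesn1 lower in Slc7a5-KO, against 6.22% of all genes. The 6 libraries separated by group without overlap for 4 members, against 11.5% of all genes tested. Eif4ebp1, Sesn2 and Flcn were higher in every Slc7a5-KO library than in any WT library, as were 5.93% of all genes, and Sesn1 was lower, as were 5.54% of all genes. The other 6 members overlapped. These counts are a description and not a test, since the members were listed with earlier results of these data known. The median log2 fold change of the 10 was 0.09, beside 0.0022 over all genes tested, and Eif4ebp1 was the only member past 1.5-fold.

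**Figure D1:**
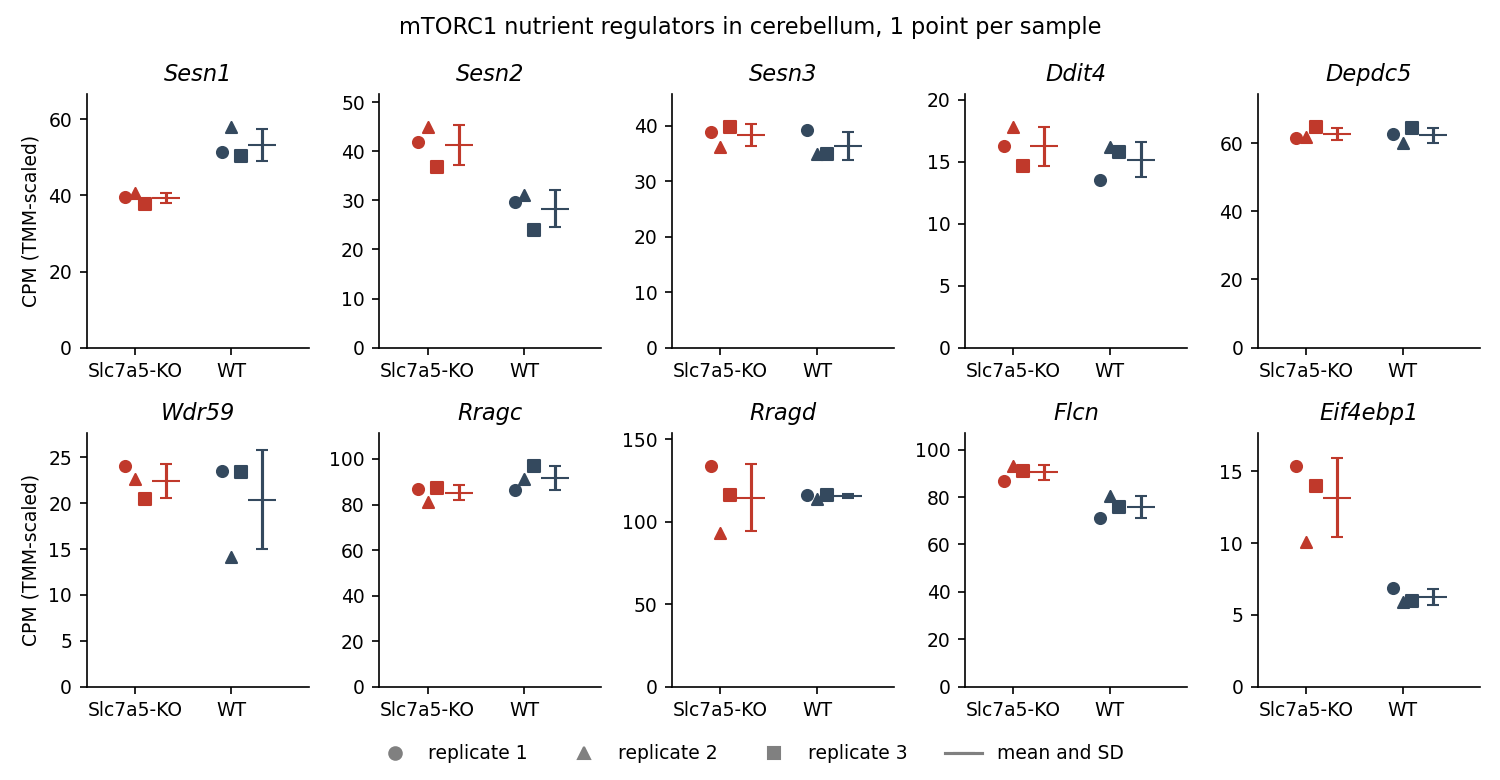
TMM-scaled CPM (y axis, from 0) of each regulator in the 3 Slc7a5-KO and 3 WT libraries, with 1 symbol per replicate and bars for the mean and SD of each group. The groups lie apart for Sesn1, Sesn2, Flcn and Eif4ebp1 and overlap for the other 6.

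Within the sestrin family, Sesn2 and Sesn1 lay in opposite directions and Sesn3 differed little. Sesn2 (ENSMUSG00000028893.8, chromosome 4, 132492032 to 132510501, minus strand, GRCm38) stood at 41.8, 45.0 and 36.8 CPM in Slc7a5-KO, against 29.7, 31.1 and 24.0 CPM in WT. The lowest Slc7a5-KO value lay above the highest WT value. Its log2 fold change was 0.54 ± 0.17 (SE, n = 3 per group), a 1.46-fold difference with a 95% interval of 1.14 to 1.87, and it did not pass the threshold (edgeR unadjusted p = 0.0050, edgeR adjusted p = 0.57). Sesn1 (ENSMUSG00000038332.12, chromosome 10, 41809935 to 41908424, plus strand) stood at 39.5, 40.7 and 37.9 CPM in Slc7a5-KO, against 51.3, 58.1 and 50.3 CPM in WT. The highest Slc7a5-KO value lay below the lowest WT value, and the Slc7a5-KO samples were the more alike, with an SD of 1.40 CPM against 4.22 CPM in WT. Its log2 fold change was -0.44 ± 0.15 (95% interval -0.75 to -0.13), also short of the threshold (edgeR unadjusted p = 0.0086, edgeR adjusted p = 0.61).

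Sesn3 (ENSMUSG00000032009.7, chromosome 9, 14275067 to 14333101, plus strand) stood at 38.9, 36.1 and 39.8 CPM in Slc7a5-KO, against 39.2, 35.0 and 34.8 CPM in WT. The groups overlapped. Its log2 fold change was 0.07 ± 0.16, with a 95% interval of -0.26 to 0.41 (edgeR adjusted p = 0.98). That interval overlaps the one of Sesn2, 0.19 to 0.90, and no contrast between these genes was made.

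The start regions of the pair, Sesn2 and Sesn1, are given because these 2 genes differed in opposite directions in the same libraries. Each window runs from 250 bases before to 50 bases after a start annotated by RefSeq on GRCm38.p6. Sesn1 has 2 such starts, and counts per gene do not tell its transcripts apart. Capitals mark the FoxO element GTAAACA, read on either strand, which was found in 1 of these 3 windows.
Sesn2, chr4:132510407-132510706, minus strand: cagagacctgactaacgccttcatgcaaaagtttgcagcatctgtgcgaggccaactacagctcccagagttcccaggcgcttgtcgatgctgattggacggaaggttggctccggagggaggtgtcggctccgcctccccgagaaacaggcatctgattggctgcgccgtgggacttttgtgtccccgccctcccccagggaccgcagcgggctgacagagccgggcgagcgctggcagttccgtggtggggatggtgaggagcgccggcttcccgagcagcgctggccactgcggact
Sesn1 upstream start, chr10:41810324-41810623, plus strand: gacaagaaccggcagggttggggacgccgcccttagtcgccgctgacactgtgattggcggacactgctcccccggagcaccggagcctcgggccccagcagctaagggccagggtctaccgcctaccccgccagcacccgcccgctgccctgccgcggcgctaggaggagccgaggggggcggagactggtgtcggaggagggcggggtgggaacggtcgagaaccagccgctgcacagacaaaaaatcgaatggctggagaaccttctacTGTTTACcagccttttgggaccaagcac
Sesn1 downstream start, chr10:41887189-41887488, plus strand: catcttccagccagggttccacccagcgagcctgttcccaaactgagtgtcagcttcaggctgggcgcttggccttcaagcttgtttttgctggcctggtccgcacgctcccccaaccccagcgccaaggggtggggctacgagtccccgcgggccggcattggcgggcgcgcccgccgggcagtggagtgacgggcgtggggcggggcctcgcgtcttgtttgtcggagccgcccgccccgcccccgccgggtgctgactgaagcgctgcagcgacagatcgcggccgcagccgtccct

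The match in Sesn1 begins 22 bases downstream of the upstream start, and 3.65% of all 32851 windows of this length held that element. RefSeq windows were matched for 9 of the 10 regulators, 10 windows in all. Eif4ebp1, a known ATF4 target, had no matched window and was not searched. The C/EBP-ATF element TGATGNAA, to which ATF4 dimers are known to bind, was searched on both strands and was in 0 of the 10 windows, against 3.97% of all windows. The E-box CACGTG, the core of lysosomal CLEAR elements, was in 1 window, that of Rragc, against 7.15% of all windows. A match is a description of the letters and not of a bound factor. None of these motifs overlapped another in the windows shown.

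The ratio of Sesn2 to Sesn1 reads does not depend on how libraries are scaled. It was 1.06, 1.11 and 0.97 in Slc7a5-KO, against 0.58, 0.54 and 0.48 in WT. Sesn2 reads thus matched Sesn1 reads in Slc7a5-KO cerebellum (1.05 ± 0.07, SD, n = 3) and were fewer than those of Sesn1 in WT (0.53 ± 0.05, n = 3). That the groups lay apart by this ratio was fixed in advance, since Sesn2 was higher and Sesn1 lower without overlap. Sesn3 reads per Sesn1 read were 0.99, 0.89 and 1.05 in Slc7a5-KO and 0.76, 0.60 and 0.69 in WT, again without overlap.

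Set on a scale per length of annotated exon, the 3 sestrins together were at 24.2 ± 1.42 CPM per kilobase in Slc7a5-KO and 23.9 ± 2.01 CPM per kilobase in WT (SD, n = 3 each). Sesn2 made up 49.1%, 50.7% and 46.7% of that sum in Slc7a5-KO, against 35.6%, 34.7% and 31.6% in WT. Sesn1 made up 40.5%, 40.0% and 41.9% in Slc7a5-KO, against 53.7%, 56.4% and 57.9% in WT. On this scale the leading sestrin was Sesn2 in each Slc7a5-KO library and Sesn1 in each WT library, while the summed level overlapped between the groups. Sesn3 made up 9.26% to 11.5% in Slc7a5-KO and 8.86% to 10.7% in WT. These shares rest on the union of annotated exons, which spans 15269 bases for Sesn3, 3475 for Sesn2 and 3982 for Sesn1, so the order of the genes depends on that length and the difference in a share between samples much less. The opposite shares of Sesn2 and Sesn1 largely restate the differences of these genes given above. No test was made of the ratios or shares, since the members were listed with earlier results known.

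**Figure D2:**
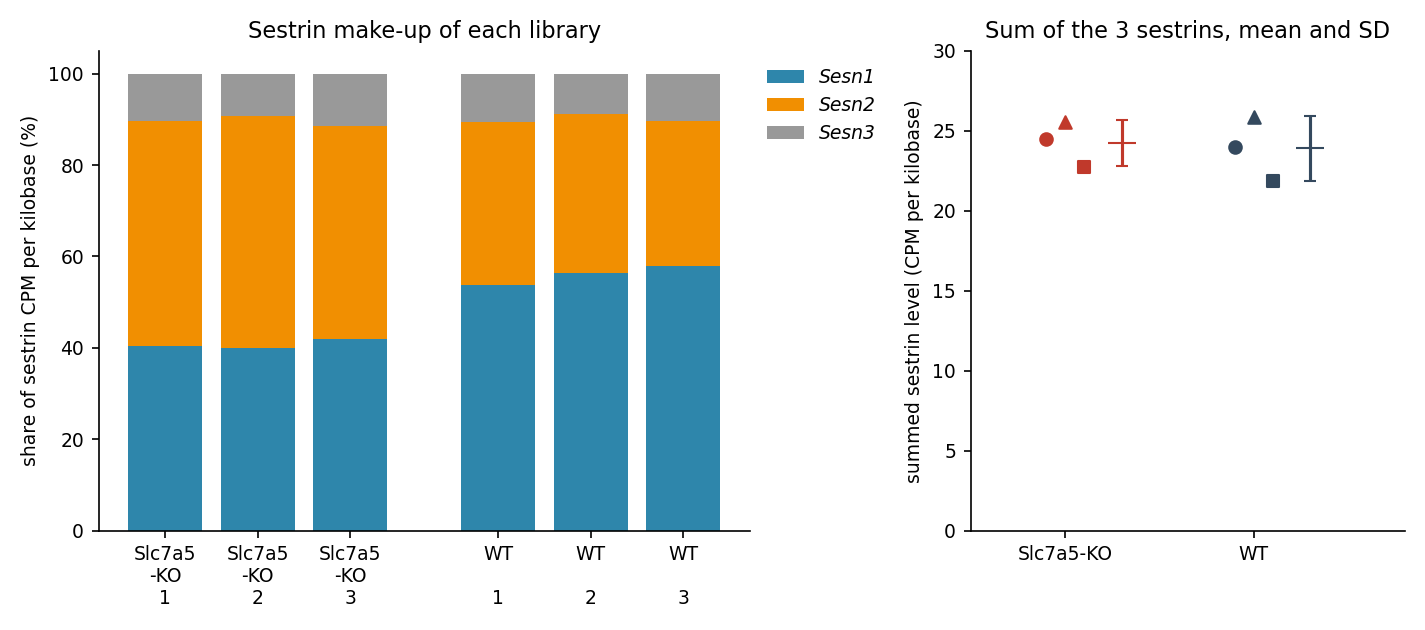
Left, the share of each sestrin in the summed sestrin level (percent of CPM per kilobase) in each of the 6 libraries, and right, the sum itself with the mean and SD of each group. Sesn2 takes 46.7% to 50.7% in Slc7a5-KO libraries and 31.6% to 35.6% in WT libraries, while the sums overlap.

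Markers of some cell types mostly lay in the same direction as Sesn1, and those of others did not. All 10 Purkinje cell markers had a log2 fold change below 0 (median -0.41), 5 of them at an unadjusted edgeR p under 0.05, with none at 0 in any library, and their sums of 3954 to 5864 CPM in Slc7a5-KO and 5693 to 6874 CPM in WT overlapped. Of the 10 astrocyte and Bergmann glia markers, 7 lay below 0 (median -0.09), with none at 0 in any library, and their sums of 4041 to 4174 CPM in Slc7a5-KO and 4260 to 4811 CPM in WT did not overlap. The other 3 of this list lay above 0. Among them Gfap was higher without overlap (log2 fold change 0.55 ± 0.14, edgeR adjusted p = 0.31), while S100b was lower without overlap (-0.38 ± 0.13, edgeR adjusted p = 0.64). Granule neuron markers lay below 0 for 8 of 10 (median -0.17) and choroid plexus markers for 10 of 10 (median -0.79), with none at 0 in any library, and the sums of both lists overlapped between the groups. Oligodendrocyte markers lay above 0 for 7 of 10 (median 0.05) and microglia markers for 9 of 10 (median 0.30). Endothelial markers lay above 0 for 5 of 10 (median 0.07). The part of any of these markers in the Sesn1 difference was not tested.

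Ddit4 encodes REDD1, a stress-induced protein that restrains mTORC1 through the TSC complex. Ddit4 (ENSMUSG00000020108.3, chromosome 10, 59949669 to 59951834, minus strand) stood at 16.3, 17.8 and 14.6 CPM in Slc7a5-KO, against 13.5, 16.2 and 15.8 CPM in WT. The groups overlapped. Its log2 fold change was 0.10 ± 0.21 with a 95% interval of -0.35 to 0.55 (edgeR adjusted p = 0.98). That interval holds a fold from 0.79 to 1.46.

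The GATOR subunits showed no separation. Depdc5, the GATOR1 subunit (ENSMUSG00000037426.17, chromosome 5, 32863701 to 32994236, plus strand), stood at 61.5, 61.9 and 64.8 CPM in Slc7a5-KO, against 62.6, 60.0 and 64.4 CPM in WT. It had the smallest difference of the 10, a log2 fold change of 0.01 ± 0.14 and a fold interval of 0.83 to 1.22 (edgeR adjusted p = 1.00). Wdr59, the GATOR2 subunit (ENSMUSG00000031959.14, chromosome 8, 111448797 to 111522092, minus strand), stood at 24.1, 22.7 and 20.4 CPM in Slc7a5-KO, against 23.5, 14.1 and 23.4 CPM in WT. Its low value was that of WT replicate 2, the sample apart on component 2. The log2 fold change of Wdr59 was 0.14 ± 0.22 (edgeR adjusted p = 0.98) and was -0.06 without that sample.

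Of the Rag GTPases, Rragc and Rragd are the partners that bind RagA or RagB. Rragc (ENSMUSG00000028646.16, chromosome 4, 123917446 to 123936997, plus strand) stood at 87.0, 81.3 and 87.0 CPM in Slc7a5-KO, against 86.6, 91.4 and 97.1 CPM in WT. Its log2 fold change was -0.11 ± 0.13, with a fold interval of 0.77 to 1.12 (edgeR adjusted p = 0.97), and the groups overlapped. Rragd (ENSMUSG00000028278.14, chromosome 4, 32983037 to 33022180, plus strand) stood at 134, 93.4 and 116 CPM in Slc7a5-KO, against 116, 114 and 116 CPM in WT. The 2 groups had nearly the same mean, 114.5 ± 20.4 and 115.5 ± 1.18 CPM (SD, n = 3 each), but the Slc7a5-KO samples were spread far wider. Summed Purkinje markers in Slc7a5-KO replicates 1 to 3 were 5864, 3954 and 5126 CPM. Granule neuron sums were 6042, 3825 and 3825 CPM, and oligodendrocyte sums 4365, 7496 and 5603 CPM. For astrocytes and Bergmann glia they were 4174, 4155 and 4041 CPM, and for endothelium 442, 503 and 541 CPM. Microglia sums were 351, 389 and 388 CPM, and choroid plexus sums 3480, 278 and 6335 CPM. None of these markers was at 0 in any library, and their part in the spread of Rragd was not tested. The log2 fold change of Rragd was -0.01 ± 0.14 (edgeR adjusted p = 1.00), and 0.11 without Slc7a5-KO replicate 2.

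Flcn encodes folliculin, which acts on RagC and RagD to promote mTORC1 activity toward the lysosomal factors TFEB and TFE3, and is itself a known target of these factors. Flcn (ENSMUSG00000032633.12, chromosome 11, 59791408 to 59810016, minus strand) stood at 87.0, 93.2 and 91.1 CPM in Slc7a5-KO, against 71.0, 80.5 and 76.0 CPM in WT. The lowest Slc7a5-KO value lay above the highest WT value. The difference was small, at a log2 fold change of 0.25 ± 0.13 with an interval of -0.02 to 0.53 (edgeR unadjusted p = 0.067, edgeR adjusted p = 0.82).

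Eif4ebp1 encodes 4E-BP1, a repressor of cap-dependent translation that mTORC1 phosphorylates and so inactivates. It had the largest difference of the 10. Eif4ebp1 (ENSMUSG00000031490.5, chromosome 8, 27260329 to 27276674, plus strand) stood at 15.4, 10.1 and 14.0 CPM in Slc7a5-KO, against 6.89, 5.88 and 5.94 CPM in WT. The Slc7a5-KO values lay well above the WT values, with replicate 2 the lowest of the Slc7a5-KO samples. The fold was 2.10 with a 95% interval of 1.42 to 3.12 (log2 1.07 ± 0.27), and the gene ranked 51 by p among all genes tested (edgeR unadjusted p = 0.00090, edgeR adjusted p = 0.29). It was also the member with the fewest reads, 163 to 497 per library, where the other 9 had 199 to 4331.

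Eif4ebp2 and Eif4ebp3 encode related repressors. Eif4ebp2 stood at 25.6, 31.7 and 23.2 CPM in Slc7a5-KO, against 21.3, 26.1 and 26.3 CPM in WT (log2 0.13 ± 0.19, edgeR adjusted p = 0.97), and Eif4ebp3 was below the filter on low counts. Eif4ebp1 reads per Eif4ebp2 read were 0.60, 0.32 and 0.60 in Slc7a5-KO, against 0.32, 0.23 and 0.23 in WT. By this ratio Slc7a5-KO replicate 2, at 0.318, lay just below WT replicate 1, at 0.324, so the groups overlapped. Microglia markers lay in the same direction as Eif4ebp1, with sums that did not overlap: 9 of 10 had a log2 fold change above 0 (median 0.30), with none at 0 in any library, and their sums were 351 to 389 CPM in Slc7a5-KO and 275 to 348 CPM in WT. In replicates 1 to 3 these sums were 351, 389 and 388 CPM in Slc7a5-KO and 290, 348 and 275 CPM in WT. The part of the microglia markers in the Eif4ebp1 difference was not tested.

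**Figure D3:**
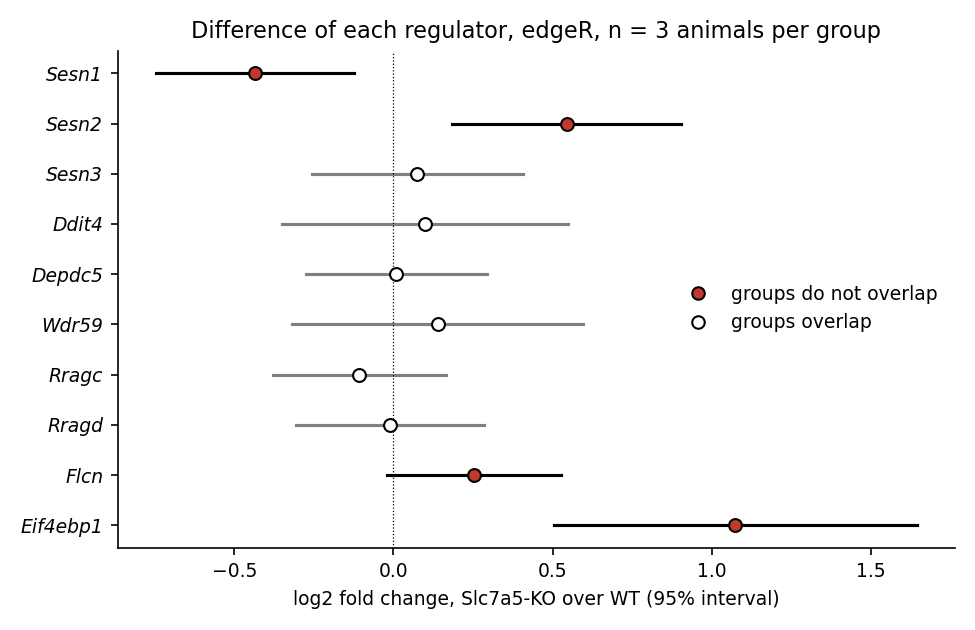
Log2 fold change of each regulator (x axis, Slc7a5-KO over WT) with its 95% interval from edgeR, unadjusted for the number of genes. Sesn1, Sesn2 and Eif4ebp1 have intervals that leave out 0, and Flcn has one from -0.02 to 0.53. The replicates counted in the title are samples, which the labels do not say are separate animals.

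On the scale per length of annotated exon, the order of the members differed between the groups in the middle of the range. In Slc7a5-KO the order began with Rragc (25.5 ± 0.99 CPM per kilobase, SD, n = 3), Rragd (22.1 ± 3.94) and Flcn (20.9 ± 0.74), with Rragd within 1 SD of both neighbours, and in WT with Rragc (27.4 ± 1.57), Rragd (22.3 ± 0.23) and Flcn (17.5 ± 1.11). Next in Slc7a5-KO came Sesn2 (11.9 ± 1.18), Sesn1 (9.88 ± 0.35) and Ddit4 (9.25 ± 0.91), of which Sesn1 and Ddit4 did not differ beyond their spread. Next in WT came Sesn1 (13.4 ± 1.06), Ddit4 (8.65 ± 0.82) and Sesn2 (8.14 ± 1.09), of which Ddit4 and Sesn2 did not differ beyond theirs. Eif4ebp1 reached 5.99 ± 1.25 CPM per kilobase in Slc7a5-KO, within its spread of Depdc5 (5.33 ± 0.16), whereas in WT it stood at 2.84 ± 0.26 and Depdc5 at 5.29 ± 0.19. Sesn3 and Wdr59 were the lowest in both groups, from 2.30 to 2.53 CPM per kilobase on average. Sesn2, Rragc and Depdc5 each overlap another annotated gene on the same strand, so their levels are less certain than those of the other members.

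The wider mTORC1 pathway was examined through 5 lists that hold 50 further genes, of which 49 were matched and 48 tested. None passed an adjusted edgeR p of 0.05, and 0 passed with DESeq2 or limma-voom. At an unadjusted edgeR p under 0.05, 2 were higher (background 3.45%) and 0 lower (background 2.77%). Of the 48, 24 lay above 0 and 24 below, with a median log2 fold change of 0.0053. The partners of Depdc5 and Wdr59 had a median of -0.01 over 9 genes, with Sec13 at -0.28 ± 0.17 and Nprl2, a GATOR1 subunit, at -0.28 ± 0.17. The partners of the Rags and folliculin had a median of -0.11 over 9 genes, with Lamtor3, a Ragulator subunit, at -0.28 ± 0.20 and Fnip2, a folliculin partner, at -0.19 ± 0.18. The 7 other sensors and their carriers had a median of 0.02, with Bmt2, the S-adenosylmethionine sensor SAMTOR, at -0.26 ± 0.17 and Lars, the leucyl-tRNA synthetase, at 0.33 ± 0.18. All of these had edgeR adjusted p of 0.85 to 0.95.

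Akt1s1 encodes PRAS40, an inhibitory subunit of mTORC1. It stood at 64.9, 86.5 and 60.1 CPM in Slc7a5-KO, against 49.2, 54.2 and 42.3 CPM in WT. These groups did not overlap, and the log2 fold change was 0.54 ± 0.16 (edgeR unadjusted p = 0.0038, edgeR adjusted p = 0.53). In the same list Ddit4l, a relative of Ddit4, was low, at 1.67, 3.06 and 2.5 CPM in Slc7a5-KO against 3.56, 5.05 and 4.16 CPM in WT (log2 -0.82 ± 0.44, edgeR adjusted p = 0.84), while Mtor itself had 0.03 ± 0.12. Among substrates and output genes Larp1, a repressor of ribosomal protein mRNA translation, had 0.35 ± 0.15 (edgeR adjusted p = 0.75) and Lpin1 0.28 ± 0.17 (edgeR adjusted p = 0.86).

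**Figure D4:**
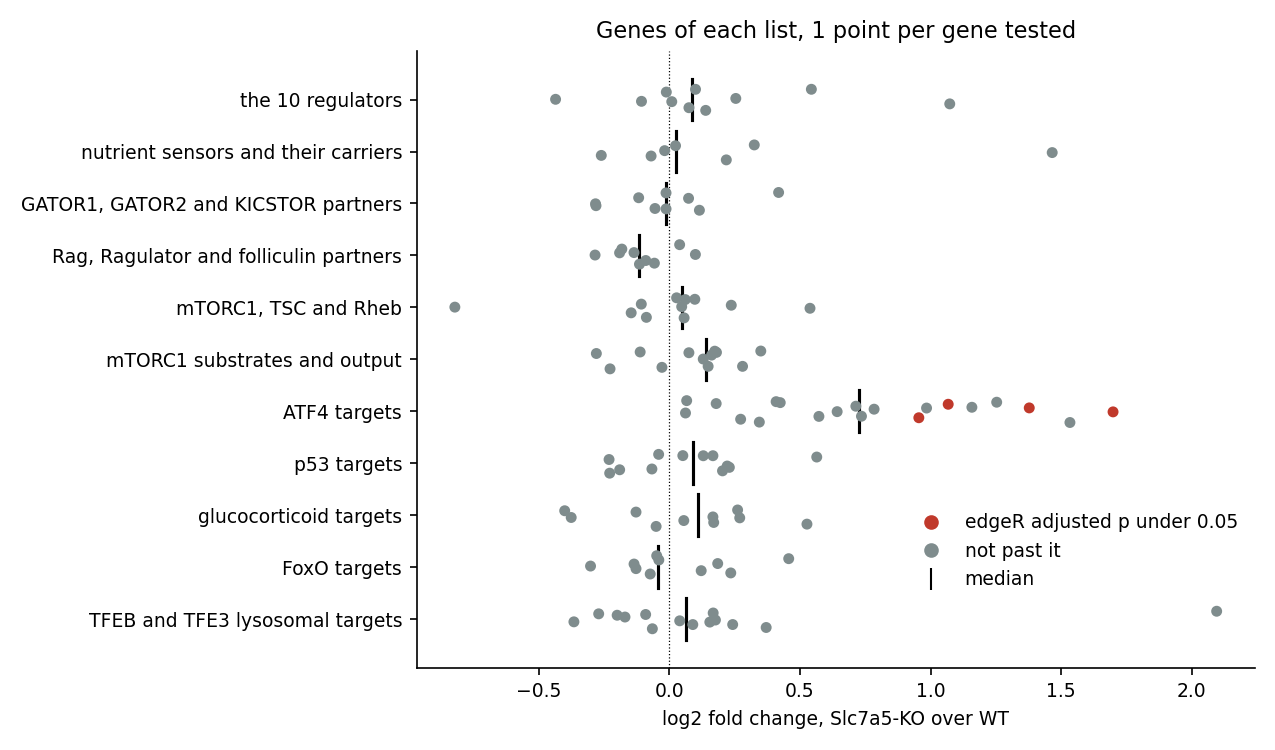
Log2 fold change (x axis, Slc7a5-KO over WT) of each gene tested in the 10 regulators, in 5 lists of mTORC1 pathway genes and in 5 lists of transcription programme targets, with a bar at each list's median. Only genes of the ATF4 list pass the edgeR threshold, and the medians of the other lists lie between -0.11 and 0.14.

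Genes under the transcription factors known to drive members were counted beside them. All 20 ATF4 targets tested lay above 0, with a median log2 fold change of 0.72, and 4 rose by edgeR, among them Atf5 (1.70 ± 0.17, edgeR adjusted p = 0.00017), Chac1 (1.38 ± 0.20, edgeR adjusted p = 0.0055) and Slc7a1 (1.07 ± 0.15, edgeR adjusted p = 0.0055). Of the 3 members known as ATF4 targets, Eif4ebp1 (1.07) lay above that median, Sesn2 (0.54) below it, and Ddit4 (0.10) near the lowest gene of the list (0.06). The 12 p53 targets had a median of 0.09 and 0 of them at an unadjusted edgeR p under 0.05, with Bbc3 at 0.56 ± 0.34 and Ccng1 at -0.23 ± 0.17. The 10 FoxO targets had a median of -0.04 and likewise 0, with Fbxo32 at 0.46 ± 0.26 and Txnip at 0.24 ± 0.15. These are the programmes under which Sesn1 and Sesn3 are known, and Sesn1 (-0.44) lay below the lowest gene of each of these lists, -0.23 for p53 and -0.30 for FoxO.

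The 10 glucocorticoid receptor targets, a programme known to induce Ddit4, had a median of 0.11. The metallothionein Mt2 had 0.53 ± 0.17 (edgeR adjusted p = 0.59) and Errfi1 0.26 ± 0.18 (edgeR adjusted p = 0.90). The 14 lysosomal targets of TFEB and TFE3, the programme of Flcn, had a median of 0.06. Gpnmb, a transmembrane glycoprotein also made by phagocytes, stood at 9.60, 4.82 and 6.18 CPM in Slc7a5-KO against 1.95, 1.34 and 1.52 CPM in WT (log2 2.10 ± 0.41, edgeR adjusted p = 0.092, DESeq2 adjusted p = 0.0016). These lists were drawn up with earlier results of these data known and give counts, not a test.

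The 4 members whose groups lay apart kept their direction when any 1 library was left out. The log2 fold change of Sesn2 then ran from 0.44 to 0.62, that of Sesn1 from -0.48 to -0.37, that of Flcn from 0.21 to 0.30 and that of Eif4ebp1 from 0.94 to 1.23. A kept direction was fixed in advance by the lack of overlap. The edgeR unadjusted p ran from 0.0041 to 0.039 for Sesn2, from 0.014 to 0.034 for Sesn1 and from 0.00058 to 0.0082 for Eif4ebp1. For Flcn it ran from 0.045 to 0.18 and was under 0.05 only without WT replicate 2. The highest p for Sesn2 came without WT replicate 3, for Sesn1 without WT replicate 2, and for Eif4ebp1 without Slc7a5-KO replicate 1. No edgeR adjusted p for these genes was under 0.05 in any of these fits.

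**Figure D5:**
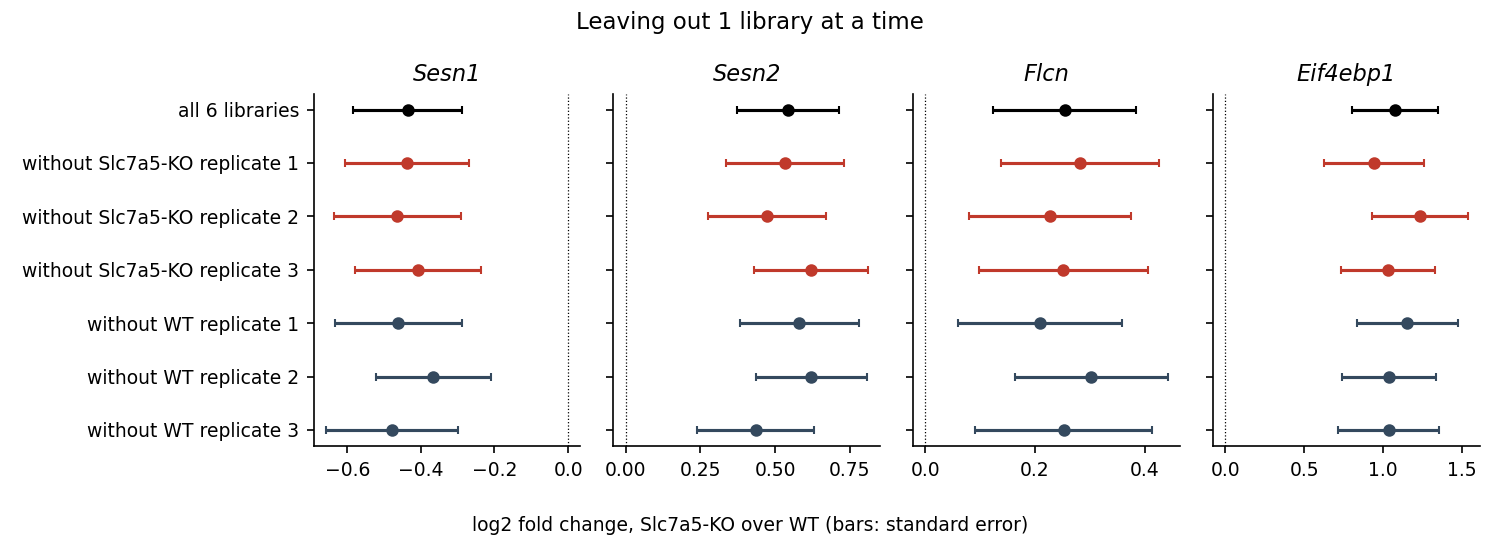
Log2 fold change (x axis, Slc7a5-KO over WT, bars for the standard error) of Sesn1, Sesn2, Flcn and Eif4ebp1 with all 6 libraries and with each library left out in turn. Each gene stays on its side of 0, with Sesn1 from -0.48 to -0.37 and Eif4ebp1 from 0.94 to 1.23.

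The authors' deposited table, a DESeq2 comparison of the same libraries, listed 1 of the 10 regulators at an adjusted p under 0.05, against 0.9% of the 14561 genes with an adjusted p. In the authors' deposited table that gene was Eif4ebp1 (log2 fold change 0.73 shrunken and 1.07 unshrunken, adjusted p = 0.0037). The Wald score in the authors' deposited table is the shrunken value over its standard error. At an adjusted p under 0.1 the authors' deposited table listed 3 of the 10, against 1.59% of all genes. Sesn2 and Sesn1 came next in the authors' deposited table, with adjusted p of 0.055 and 0.065. Their shrunken values were 0.45 and -0.39, and their unshrunken values 0.54 and -0.44. Flcn had 0.23 shrunken, 0.25 unshrunken and an adjusted p of 0.36 in the authors' deposited table, and the other 6 had adjusted p of 0.78 to 0.99. All 10 had the same sign in the authors' deposited table as in edgeR. The later DESeq2 version used here left log2 fold changes unshrunken. Its DESeq2 adjusted p was 0.060 for Eif4ebp1, 0.27 for Sesn2 and 0.31 for Sesn1. Eif4ebp1 thus passed the threshold in the authors' deposited table and in none of the fits made here.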

How the data were processed

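Per the labels' protocols, total RNA was turned into libraries by a SENSE mRNA-Seq V2 kit. The deposited values are raw read counts per gene, made with STAR 2.5.4 on GRCm38 (mm10), per the submitters' processing notes. Which annotation release was counted, and whether PCR duplicates were removed, is not given here. The reverse-strand counts, 94.8% to 95.8% of stranded reads, were used. Reads assigned to no single gene (19.5% to 22.2%) stayed out of library sizes and tests, and multimapping reads are listed as 0. Per the file headers, the authors' deposited table (DESeq2 1.10.1 in R 3.2.4) gives a mean normalised signal, log2 fold changes, a Wald score and p-values.

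Symbols and coordinates come from GENCODE M21, with 5 of the 10 identifiers under another version there. After filterByExpr (count 10, total 15) and TMM scaling, the 2-sided quasi-likelihood test of edgeR 4.0.16 was run in R 4.3.3, and p-values were adjusted over all genes by Benjamini and Hochberg. A gene was called at an adjusted p under 0.05. A ± follows CPM as SD and log2 fold changes as standard error, and 95% intervals come from the edgeR fit. Alternatives were RLE scaling, no filter, DESeq2 1.42.0, limma-voom (limma 3.58.1), unstranded counts, a replicate block, a sex term, thinning to the shallowest library and leaving out each library. The fits were tested on simulated data. Of the pathway lists, the text names at most 3 called genes, or else the pair of lowest p. For the lysosomal list, 1 of that pair is not reported here. Mtor, Eif4ebp2 and Eif4ebp3 were named after their values were seen. Members and lists were chosen with earlier results of these data known. With 3 samples per group and a biological coefficient of variation of 31.6%, small differences could not be detected.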

Additional observations from a re-analysis of the deposited data

How the results depend on the processing

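The 10 regulators had 0 calls under every alternative run, as did the 5 mTORC1 lists. The count of all genes called, 8, became 71 with no filter on low counts, 46 with DESeq2 and 16 with a sex term, and lay between 3 and 20 with 1 library left out (3 without WT replicate 3, 5 without WT replicate 1, 5 without Slc7a5-KO replicate 3, 20 with either other Slc7a5-KO library omitted). The 4 calls in the transcription programme lists became 8 with no filter and 7 with DESeq2, and lay between 2 (without WT replicate 3) and 6 with 1 library left out. The causes were not tested. Signs turned for 3 members near 0: with thinned counts the log2 fold change of Rragd was 0.0063 and that of Depdc5 -0.049, and with 1 library left out Rragd ran from -0.14 to 0.11, Depdc5 from -0.015 to 0.030 and Wdr59 from -0.062 to 0.26. Over all 14 alternatives Sesn2 ran from 0.44 to 0.62 (edgeR, DESeq2 or limma-voom adjusted p 0.27 to 1.00), Sesn1 from -0.48 to -0.37 (adjusted p 0.31 to 1.00) and Eif4ebp1 from 0.94 to 1.23 (adjusted p 0.060 to 0.99). With a sex term they were 0.54, -0.45 and 0.98, and RLE scaling moved the median of all genes by less than 0.01. The same replicate numbers gave no sign of pairing, as same-numbered libraries deviated from their group means with correlations of -0.04, -0.06 and -0.03. Correlations over so few samples cannot exclude a pairing. With a replicate block edgeR called 6 genes and none of the 10 regulators.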

Other observations

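The genes whose log2 CPM was most like that of Eif4ebp1 over the 6 libraries were Gm20743, Atp1b2 and Gpnmb, out of 14693 genes compared. Pearson's r was 0.998, 0.992 and 0.988 and Spearman's rho 0.94, 0.94 and 1.00. They are given as a description with no test, since so many genes were searched over 6 points that share libraries and depth. Eif4ebp1 was taken as the member with the smallest edgeR p, so genes that separate the groups in its direction tend to rank high. Atp1b2, a sodium pump subunit of glia and neurons, stood at 1366, 1192 and 1368 CPM in Slc7a5-KO, against 1082, 978 and 1010 CPM in WT.

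Summed endothelial markers were 442 to 541 CPM in Slc7a5-KO and 512 to 537 CPM in WT. Hindbrain Hox genes, a gauge of brainstem in the dissection, summed to 2.17 to 12.03 CPM in Slc7a5-KO and 2.27 to 25.3 CPM in WT, and the sums of both lists overlapped between the groups.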
